A study of Saccharomyces cerevisiae and Saccharomyces cerevisiae x Saccharomyces paradoxus and Saccharomyces cerevisiae x Saccharomyces mikatae with 18 samples.

Results

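Iron uptake in budding yeast depends on a small set of genes, and 10 of them were sought here by systematic name: FET3, FTR1, CCC2, ARN1, ARN2, SIT1, FRE1, FIT1, FIT2 and FIT3. Of these, 5 were listed among the 4730 genes of the series, namely FET3 (YMR058W), FTR1 (YER145C), CCC2 (YDR270W), ARN1 (YHL040C) and SIT1 (YEL065W). ARN2, FRE1, FIT1, FIT2 and FIT3 were not analysed here. The 5 genes were followed in every homozygote library and every hybrid allele, and all 5 passed the minimum mean scaled score of 10 in every comparison.

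The series measured poly-adenylated transcript ends by strand-specific RNA-seq in 4 Saccharomyces species and in hybrids between S. cerevisiae and each of the other species, so that expression differences between species could be set beside differences between alleles in 1 cell. There were 12 homozygote libraries, 6 of S. cerevisiae and 2 of every other species (S. paradoxus, S. mikatae, S. bayanus), and 6 hybrid libraries, 2 for each of the 3 hybrids. All cultures grew in rich YPD medium at 25°C and were taken in log phase, at an optical density between 0.65 and 0.75. The summed score was 4760197 to 6883279 in a homozygote library and 2255430 to 3336994 in a single allele of a hybrid library.

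The S. cerevisiae homozygote was the diploid YHL068, from BY4741 x BY4716 and labelled wild type, in which the lys2Δ0, leu2Δ0, his3Δ1, met15Δ0 and ura3Δ0 deletions were each heterozygous. The other homozygotes were the wild-type strains CBS 432 of S. paradoxus, IFO 1815 of S. mikatae and CBS 7001 of S. bayanus. Each hybrid had BY4716 as its S. cerevisiae parent and so carried lys2Δ0 on that side, over OZY361 in the S. paradoxus hybrid YYM014, JRY9175 in the S. mikatae hybrid YYM030 and JRY9191 in the S. bayanus hybrid YYM015. The S. paradoxus parent added heterozygous ade2 and ura3 markers, the S. mikatae parent a his3 deletion and the S. bayanus parent his3 and ura3 markers. Each species was represented by 1 strain, so that species and strain cannot be told apart.

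Iron outside the yeast cell is first reduced at the plasma membrane. Fet3, a copper-dependent oxidase, and Ftr1, a permease, then bring it in as a complex, and Ccc2, a copper-transporting ATPase of the secretory pathway, supplies Fet3 with its copper. Iron bound to siderophores, the chelators that many microbes release, enters through other carriers, among them Arn1 for ferrichrome-type siderophores and Sit1 for ferrioxamine. In S. cerevisiae, the activators Aft1 and Aft2 turn these genes on when iron is scarce, and in rich medium with enough iron they are held low.

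The activators bind a promoter element with the core letters TGCACCC. These letters were searched on both strands of the 500 bases before each start codon in the S. cerevisiae reference sequence of RefSeq (assembly R64). The 5 genes held 7 matches. Since the genes are known targets of these activators, a match in all 5 was likely beforehand, and the matches are shown as a description. They are written 5′ to 3′ on the strand of the gene, with the match in capitals, which reads GGGTGCA where it lies on the opposite strand.
FET3, chrXIII:388560-388588, plus strand: atcttcaaaagTGCACCCatttgcaggtg
FTR1 far match, chrV:462088-462116, minus strand: tttccaggccaGGGTGCAgaaatactatt
FTR1 near match, chrV:461898-461926, minus strand: gcgtagatgaaTGCACCCgatttctaagt
CCC2 far match, chrIV:1005374-1005402, plus strand: agtattgtcctGGGTGCAgttatttgtag
CCC2 near match, chrIV:1005422-1005450, plus strand: tggaaaagaacGGGTGCAgtgcggcgatg
ARN1, chrVIII:21214-21242, minus strand: atttatcaaaaTGCACCCataaaagcagg
SIT1, chrV:27458-27486, plus strand: aacacatttgaGGGTGCAatctggttcgt

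The match began 245 bases before the start codon in FET3, 254 in ARN1 and 182 in SIT1, 169 and 359 in FTR1, and 236 and 284 in CCC2, counted from its base nearest to the gene. FTR1 and CCC2 thus had 2 matches each. Over all 6000 protein-coding genes searched, 140 (2.33%) held at least 1 match and 12 held 2 or more. Of the 26 other listed genes of iron and copper handling, 10 (38.5%) held a match, among them FRE3, FRE4, FRE6, FRE8, FET4, SMF3, FET5, TIS11, HMX1 and ISU1. A match is a description of letters in the S. cerevisiae reference and was not looked for in the other species.

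In the same reference, each of the 5 genes had a single coding exon: FET3 at chrXIII:388822-390732, FTR1 at chrV:460526-461740, CCC2 at chrIV:1005675-1008689, ARN1 at chrVIII:19088-20971 and SIT1 at chrV:27657-29543. ARN1 and SIT1 were subtelomeric, 19087 and 27656 bases from the nearest chromosome end. Because ARN1 and SIT1 belong to a family of related carriers, every window of 36 bases over the 5 counted features was compared with the R64 genome, and 100% of the windows occurred once. The deposited files gave no coordinates, and the S. cerevisiae build behind them is not given in the sources used here.

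The 6 S. cerevisiae homozygote libraries did not agree among themselves on iron genes. For each library, the deposited table was counted jointly against the genome of 1 other species, which gave 3 pairs of libraries; the labels do not name the pair. The 2 libraries tabled with S. paradoxus had 1944 and 2207 scaled units of ARN1, where the 2 tabled with S. mikatae had 301 and 321 and the 2 tabled with S. bayanus 236 and 152. Scaled units are deposited scores after each library or allele was brought to the same upper quartile. ARN1 was the only 1 of the 5 genes to differ across the 3 pairs in limma's F test (adjusted p = 0.0363), beside 1.92% of all genes.

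Set against the other 4 libraries together, a contrast chosen after these values were seen, the S. paradoxus-tabled pair was 8.50-fold higher in ARN1 (log2 ratio 3.09 ± 0.24 SE, limma adjusted p = 0.0192), 3.84-fold higher in CCC2 (1.94 ± 0.28, adjusted p = 0.0270) and 2.43-fold higher in SIT1 (1.28 ± 0.24, adjusted p = 0.0416). These 3 of 5 genes stood beside 9.4% of all genes called in either direction. For FET3 the log2 ratio was 0.77 (adjusted p = 0.148) and for FTR1 it was 0.79 (adjusted p = 0.0847), and neither passed. In each of the 5 genes, both S. paradoxus-tabled libraries lay above all 4 others, as they did in 25.2% of all genes tested. None of the 3 calls held when any 1 of the 6 libraries was left out, and 0% of all genes were then called, with the adjusted p of ARN1 at 0.0514 to 0.119, of CCC2 at 0.0627 to 0.153 and of SIT1 at 0.0733 to 0.191, while the log2 ratio of ARN1 stayed between 2.93 and 3.24.

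Of the 25 other iron and copper genes tested in that contrast, 6 were called higher and 0 lower, and the log2 ratio of 9 lay below 0. FRE3, a siderophore reductase, differed by 2.54 on the log2 scale (adjusted p = 0.0192), YAP5, a regulator of iron storage, by 2.46 (adjusted p = 0.0330), TIS11, which encodes an RNA-binding protein that lowers iron-consuming transcripts, by 1.87 (adjusted p = 0.0410), and ISU1, a scaffold for iron-sulphur clusters, by 1.67 (adjusted p = 0.0241). SMF3, a vacuolar metal carrier, was higher by 1.01 (adjusted p = 0.0431) and FRE6, a vacuolar reductase, by 0.95 (adjusted p = 0.0450). AFT1 and AFT2 themselves had log2 ratios of -0.17 and -0.38 (adjusted p = 0.780 and 0.592), FRA1 had -0.75 and HMX1 -1.39 (adjusted p = 0.550 and 0.386). Like those of the 5 genes, these 6 calls were lost with any 1 library left out. Of 93 tested genes with a promoter match other than the 5, 12 (12.9%) were called higher and 3 lower, with a median log2 ratio of 0.42. Of all tested genes, 5.4% were called higher, and the median was 0.11. The 12 include FRE3, FRE6, SMF3, TIS11 and ISU1 named above, which are thus counted again here. This is a description with no test. Between the S. mikatae-tabled and S. bayanus-tabled pairs, limma called 0 of the 5 genes and 0 of all genes. What set the pair apart was not tested. Each comparison below of S. paradoxus homozygotes with the S. cerevisiae pair of their own table rests on it. The comparisons between alleles within a hybrid do not use it.

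**Figure D1:**
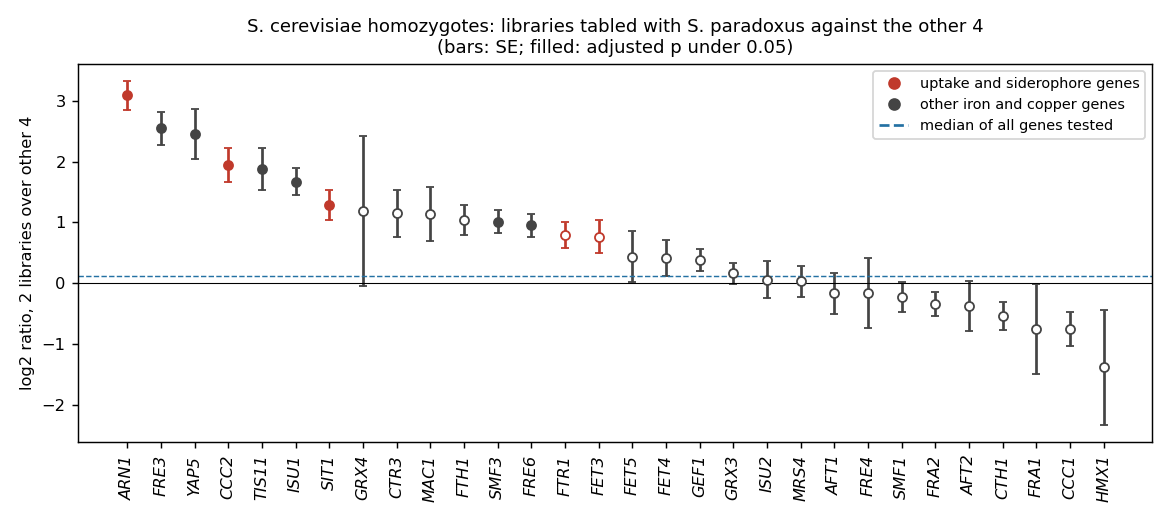
Log2 ratio of the 2 S. cerevisiae homozygote libraries tabled with S. paradoxus over the other 4, for the 5 uptake and siderophore genes (red) and the other tested iron and copper genes (grey), with bars for the SE, filled points for an adjusted p under 0.05 and a dashed line for the median of all genes tested. ARN1 lies at 3.09, CCC2 at 1.94 and SIT1 at 1.28, and the median of all genes at 0.11.

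Homozygotes were compared first, to ask how far total expression of the iron genes differed between species, each against the S. cerevisiae pair of its own table. S. paradoxus was lower in ARN1 and SIT1, S. mikatae was higher in FTR1 and lower in ARN1, and S. bayanus was lower in ARN1 and higher in CCC2. Thus 2 of 5 genes passed the test in S. paradoxus, beside 19.9% of all genes; 2 of 5 in S. mikatae, beside 19.6%; and 2 of 5 in S. bayanus, beside 34.6%. The median log2 ratio of the 5 genes was -1.68, 0.06 and -0.50 in S. paradoxus, S. mikatae and S. bayanus, where the median of all genes was -0.20, -0.13 and 0.02. Each group held 2 libraries, and leaving out 1 left a single library in a group. Most of these calls were then lost, as were many or all of the calls of all genes. No call of the 5 genes changed direction.

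The alleles of each hybrid were compared next, since alleles in 1 cell share every soluble factor. The S. paradoxus allele was lower in FTR1, the S. mikatae allele was lower in ARN1, and the S. bayanus allele was lower in ARN1 and higher in FTR1 and CCC2. This was 1 of 5 genes in the S. paradoxus hybrid, beside 5.03% of all genes, 1 of 5 in the S. mikatae hybrid, beside 15.8%, and 3 of 5 in the S. bayanus hybrid, beside 35.4%. The median log2 ratio of the 5 genes was 0.68, 0.07 and 0.53 in the S. paradoxus, S. mikatae and S. bayanus hybrids, and that of all genes 0.01, -0.04 and 0.04. The alleles of a hybrid were read from the same library, and with that library as a block, ARN1 and CCC2 of the S. bayanus hybrid still passed and the other 3 calls did not.

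**Figure D2:**
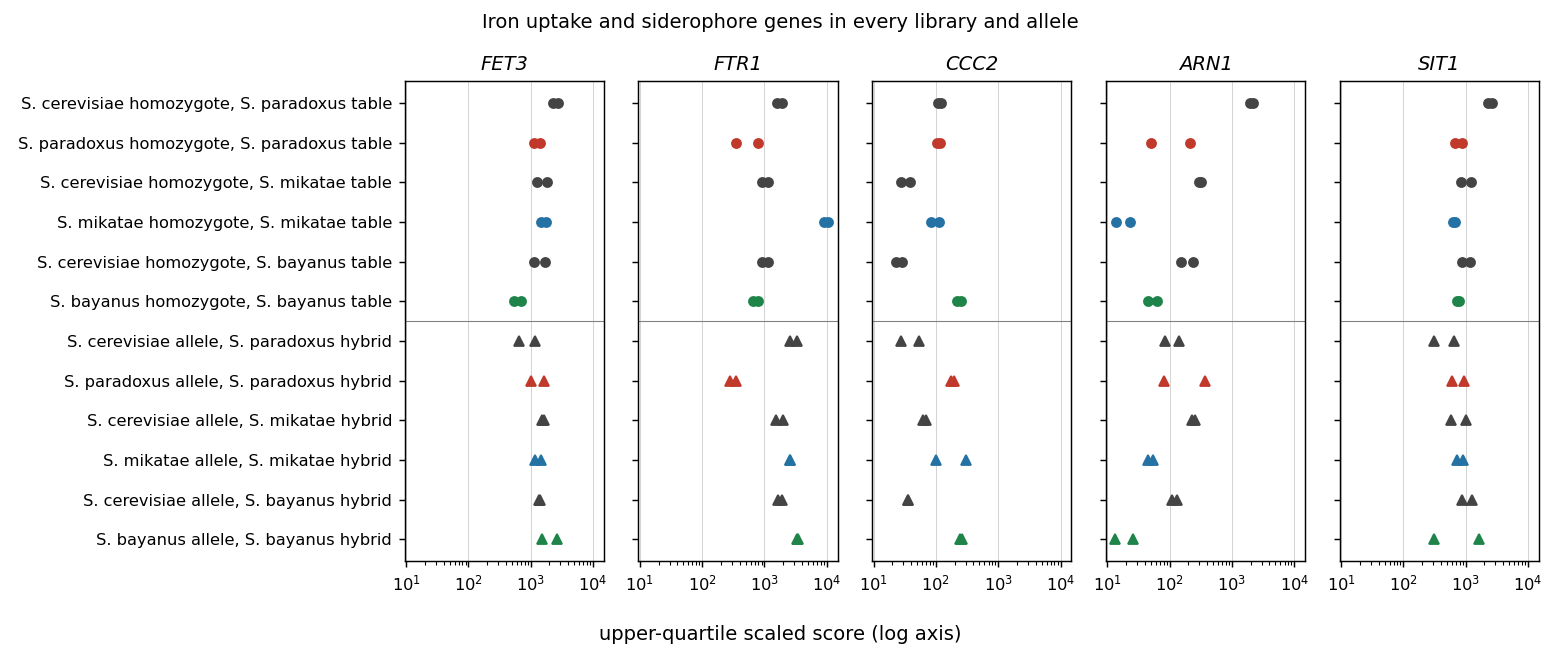
Upper-quartile scaled score of each of the 5 genes (log axis) in every homozygote library (circles) and hybrid allele (triangles), 2 points per row. FTR1 of S. mikatae homozygotes lies at 8996 and 10645, and ARN1 of the S. cerevisiae libraries tabled with S. paradoxus at 1944 and 2207.

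FET3 (YMR058W), the ferroxidase, passed the main test in no comparison of homozygotes or of alleles against S. cerevisiae. Its scaled score ran from 545 to 2703 over all 24 values, with a median of 1434. The S. cerevisiae homozygotes had 2244 and 2703 in the S. paradoxus table, 1283 and 1810 in the S. mikatae table, and 1708 and 1110.2 in the S. bayanus table. S. paradoxus had 1123 and 1433, S. mikatae 1746 and 1450.0, and S. bayanus 545 and 686. The 2 S. bayanus libraries were the lowest homozygotes, and of the 12 alleles only the S. cerevisiae allele of the second S. paradoxus hybrid library, at 640.1, reached as low.

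On the log2 scale, FET3 differed from S. cerevisiae by -1.17 ± 0.31 (SE) in S. bayanus (limma adjusted p = 0.0548), by -0.96 ± 0.29 in S. paradoxus (adjusted p = 0.0890) and by 0.06 ± 0.30 in S. mikatae (adjusted p = 0.892). Measured from the mean of all 6 S. cerevisiae homozygotes, the S. bayanus difference was -1.499 and passed (adjusted p = 0.0113). Within hybrids, the S. paradoxus allele gave 57.7% and 61.1% of the FET3 score in the 2 libraries, the S. mikatae allele 43.6% and 46.4%, and the S. bayanus allele 65.8% and 52.0%. Shares here and below are of scaled scores, with each allele scaled by its own upper quartile. The log2 ratios of 0.55, -0.29 and 0.53 had 95% confidence intervals that included 0.

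FTR1 (YER145C), the permease that works with Fet3, behaved differently in each species. S. mikatae homozygotes had 10645 and 8996 scaled units, above every other value of the gene, where their S. cerevisiae pair had 903 and 1125. The difference was 9.70-fold (log2 ratio 3.28 ± 0.27 SE, n = 2 and 2, limma adjusted p = 0.0174), and it was 8.07-fold against all 6 S. cerevisiae libraries (adjusted p = 0.000498). Leaving out 1 library gave log2 ratios of 3.12 to 3.44 with adjusted p of 0.0629 to 0.115. The partner FET3 was at 1598 on average in the same S. mikatae libraries, against 1547 in S. cerevisiae.

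In the S. mikatae hybrid the excess of FTR1 was not seen on that scale. The S. mikatae allele had 2579 and 2554 and the S. cerevisiae allele beside it 1541 and 1984, so that the groups did not overlap but the log2 ratio was 0.55 (95% CI -0.16 to 1.27, adjusted p = 0.208). The S. mikatae allele gave 62.6% and 56.3% of the score. The homozygote ratio exceeded the allele ratio by 2.72 ± 0.36 on the log2 scale, which missed the threshold (limma adjusted p = 0.0661).

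In S. paradoxus the FTR1 difference ran the other way. The S. paradoxus allele had 355 and 281 scaled units in the hybrid, and the S. cerevisiae allele had 2604 and 3295. The S. paradoxus allele thus gave 12.0% and 7.85% of the FTR1 score, 9.26-fold less than its partner (log2 ratio -3.21 ± 0.31, limma adjusted p = 0.0362). The call was lost with the library as a block (adjusted p = 0.119). It held without either library when the spread was pooled with the other hybrids (adjusted p = 0.00911 and 0.0106), a fit in which the lone library was assumed to vary like the others.

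S. paradoxus homozygotes had 354 and 799 units of FTR1, against 1586 and 1926 in their S. cerevisiae pair, a log2 ratio of -1.71 ± 0.48 that missed the threshold (adjusted p = 0.0727). Both were below all 6 S. cerevisiae homozygotes, whose lowest value was 903. The homozygote ratio and the allele ratio differed by 1.497 (95% CI 0.07 to 2.93, adjusted p = 0.230).

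In S. bayanus, FTR1 was called against S. cerevisiae in the hybrid and not in homozygotes, and the difference between these ratios (-1.41) missed the threshold (adjusted p = 0.0683). The homozygotes had 776 and 657, beside 1131 and 905 in S. cerevisiae (log2 ratio -0.50, adjusted p = 0.177). The S. bayanus allele had 3280.3 and 3398, beside 1641 and 1917 for the S. cerevisiae allele (log2 ratio 0.91 ± 0.17, limma adjusted p = 0.0283, and 0.0601 with the library as a block). The S. bayanus allele was 4.67-fold higher in the hybrid than in its own homozygote (log2 ratio 2.22 ± 0.18, adjusted p = 0.0369, and 0.160 to 0.195 with 1 library left out), the only 1 of the 5 genes called in that comparison, beside 1.05% of all genes. FET3 had 2638 and 1537 as the S. bayanus allele and 545 and 686 in the homozygote, a log2 ratio of 1.72 that did not pass (adjusted p = 0.113).

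CCC2 (YDR270W), the copper ATPase that loads Fet3, was lower in S. cerevisiae than in S. bayanus, in homozygotes and in the hybrid. The S. bayanus homozygotes had 218 and 256 and their S. cerevisiae pair 29.0 and 22.9, an 8.86-fold difference (log2 ratio 3.15 ± 0.31, limma adjusted p = 0.0100). Against all 6 S. cerevisiae libraries the difference was 5.05-fold (log2 ratio 2.34, adjusted p = 0.0254). The S. bayanus allele had 248 and 258 and the S. cerevisiae allele 36.1 and 35.4, a 6.92-fold difference (log2 ratio 2.79 ± 0.23, adjusted p = 0.00811, and 0.0324 with the library as a block). The S. bayanus allele gave 87.3% and 88.0% of the score, and its ratio in homozygotes differed from that in the hybrid by 0.36 (95% CI -0.53 to 1.24). With 1 library left out, the adjusted p was 0.0423 to 0.0702 in homozygotes and 0.0673 to 0.0733 in alleles.

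In the other hybrids the CCC2 ratio had the same sign and did not pass. The S. paradoxus allele had 174 and 194 and the S. cerevisiae allele 53.0 and 28.0, a log2 ratio of 2.22 (adjusted p = 0.0660). The S. mikatae allele had 101 and 306 and the S. cerevisiae allele 61.6 and 69.4, a log2 ratio of 1.41 (adjusted p = 0.187). In each of the 6 hybrid libraries the allele that was not S. cerevisiae gave the larger share, from 62.0% to 88.0%.

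Among homozygotes, S. mikatae had 113 and 83.3 units of CCC2 against 27.9 and 38.1 (log2 ratio 1.55, adjusted p = 0.0604). S. paradoxus had 115 and 105 against 109 and 120 in the S. cerevisiae pair of its own table (log2 ratio -0.05, adjusted p = 0.909). That S. cerevisiae pair was the one with high CCC2. Against the S. bayanus-tabled pair, the S. paradoxus ratio was 2.05 and passed (adjusted p = 0.0475), while against the S. mikatae-tabled pair it was 1.72 and against all 6 libraries 1.24, and neither passed (adjusted p = 0.0619 and 0.218).

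**Figure D3:**
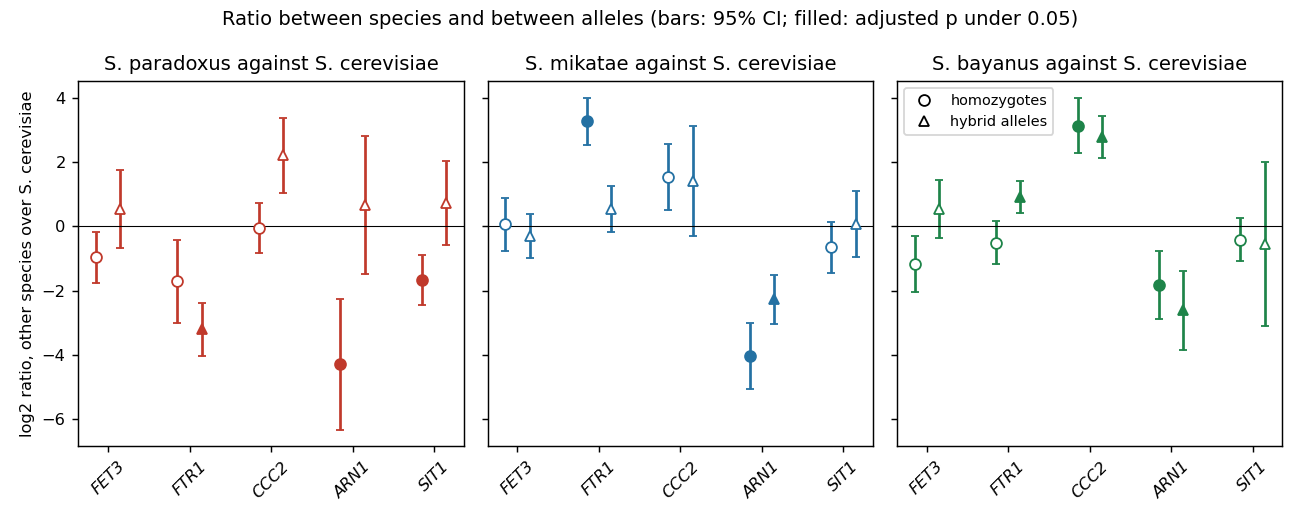
Log2 ratio of each other species (1 panel each) over S. cerevisiae for the 5 genes, in homozygotes (circles) and in hybrid alleles (triangles), with 95% confidence intervals and filled symbols for an adjusted p under 0.05. FTR1 of S. mikatae lies at 3.28 in homozygotes and 0.55 in alleles, and CCC2 of S. bayanus at 3.15 and 2.79.

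ARN1 (YHL040C), the ferrichrome carrier, was the only 1 of the 5 genes called lower than S. cerevisiae in all 3 homozygote comparisons. S. mikatae had 22.9 and 13.9 scaled units against 301 and 321, 16.5-fold lower (log2 ratio -4.05 ± 0.38, limma adjusted p = 0.0178). S. bayanus had 62.7 and 44.4 against 236 and 152, 3.54-fold lower (log2 ratio -1.83 ± 0.38, adjusted p = 0.0321). S. paradoxus had 49.97 and 214 against 1944 and 2207 (log2 ratio -4.31 ± 0.75, adjusted p = 0.0336).

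The ARN1 difference in S. paradoxus rested on the S. cerevisiae pair described above. Against the S. mikatae-tabled pair the log2 ratio was -1.57 (adjusted p = 0.231), against the S. bayanus-tabled pair -0.86 (adjusted p = 0.504) and against all 6 libraries -2.25 (adjusted p = 0.173). With all 6 as the reference, the log2 ratio was -4.72 in S. mikatae (adjusted p = 0.00934) and -3.21 in S. bayanus (adjusted p = 0.0381). Leaving out 1 library moved the adjusted p to 0.0522 to 0.158 in S. paradoxus, where the log2 ratio ran from -5.35 to -3.27, 0.0629 to 0.115 in S. mikatae and 0.0643 to 0.128 in S. bayanus.

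Within hybrids, ARN1 was low on the same side in 2 of 3 cases. The S. mikatae allele had 44.5 and 53.5 against 228 and 254 for the S. cerevisiae allele (log2 ratio -2.28 ± 0.28, limma adjusted p = 0.0272, and 0.0755 with the library as a block). The S. bayanus allele had 13.3 and 26.0 against 110 and 131 (log2 ratio -2.62 ± 0.44, adjusted p = 0.0221, and 0.0417 with the block). These alleles gave 16.4% and 17.4% of the ARN1 score in the S. mikatae hybrid and 10.8% and 16.6% in the S. bayanus hybrid. With 1 library left out, neither passed (adjusted p = 0.200 to 0.207 and 0.0938 to 0.169).

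The S. paradoxus hybrid was divided over ARN1. The S. paradoxus allele had 82.4 units in the first library and 366 in the second, and the S. cerevisiae allele 140 and 84.1, so that the share of the S. paradoxus allele was 37.1% in one library and 81.3% in the other. The log2 ratio of 0.68 had a 95% CI of -1.47 to 2.82 (adjusted p = 0.6247). The S. paradoxus homozygotes differed as widely, at 49.97 and 214.

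SIT1 (YEL065W), the ferrioxamine carrier, passed in S. paradoxus homozygotes and in no other comparison of homozygotes or of alleles against S. cerevisiae. Its reference there was the S. cerevisiae pair with high SIT1. The homozygotes had 876 and 674 in S. paradoxus, 662 and 619 in S. mikatae and 727 and 788 in S. bayanus, a range of 619 to 876 over the 6 libraries. The S. cerevisiae pairs of the S. mikatae and S. bayanus tables had 845 and 1205, and 880 and 1162 (the S. mikatae-tabled values first), and neither ratio passed (-0.66 and -0.42 on the log2 scale, adjusted p = 0.182 and 0.249). S. paradoxus was 3.20-fold lower than its own S. cerevisiae pair, which had 2311 and 2619 (log2 ratio -1.68 ± 0.29, limma adjusted p = 0.0328). The call was lost against all 6 libraries (log2 ratio -0.82, adjusted p = 0.248), against either other pair (-0.39 and -0.40, adjusted p = 0.476 and 0.446) and with any 1 library left out (adjusted p = 0.0560 to 0.175).

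Allele shares of SIT1 differed between the 2 libraries of each hybrid. The S. bayanus allele had 1661 units in the first library and 312 in the second, 56.5% and 26.4% of the score, while the S. cerevisiae allele beside it had 1277 and 871. The S. paradoxus allele gave 74.9% and 48.1%, and the S. mikatae allele 60.9% and 41.6%. The 48.1% depends on the scaling of each allele. Before scaling, the S. paradoxus allele of that library had the larger SIT1 score, 494 against 394 for the S. cerevisiae allele. No allele ratio passed (adjusted p = 0.380, 0.900 and 0.666 in the S. paradoxus, S. mikatae and S. bayanus hybrids).

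**Figure D4:**
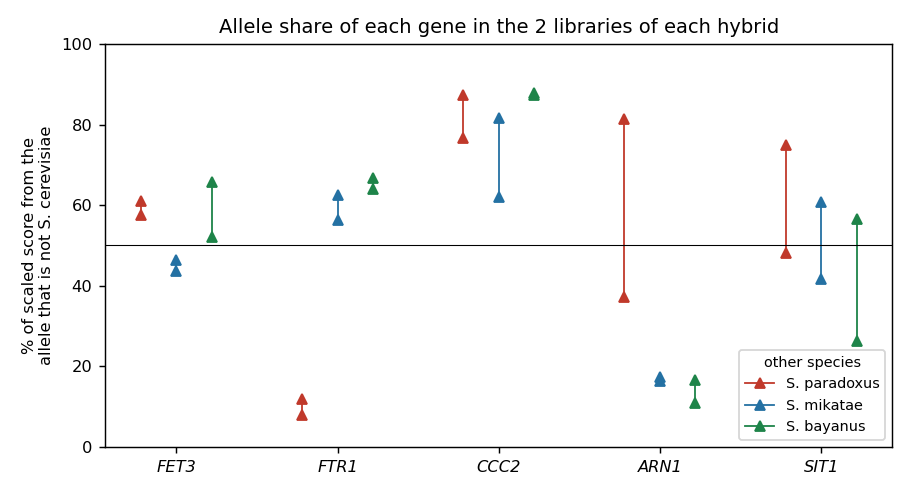
Share of the scaled score of each gene that came from the allele that was not S. cerevisiae, in percent, with 1 point for each of the 2 libraries of a hybrid and a line at 50%. CCC2 lies at 62.0% to 88.0% in all 6 libraries, FTR1 of the S. paradoxus hybrid at 7.85% and 12.0%, and ARN1 of the S. paradoxus hybrid at 37.1% and 81.3%.

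Whether a homozygote ratio differed from the allele ratio of the same species was tested as an interaction in limma, and 0 of the 5 genes passed in any species. Of all genes, 0.808% passed in S. paradoxus, 0.109% in S. mikatae and 1.84% in S. bayanus. At an unadjusted p under 0.05 there were 5 of the 5 genes in S. paradoxus, 2 in S. mikatae and 2 in S. bayanus. Of all genes, 20.2%, 14% and 18.5% lay under it in the same order of species. In S. paradoxus the log2 ratio in homozygotes minus that in alleles was -4.98 in ARN1, -2.41 in SIT1, -2.27 in CCC2 and -1.504 in FET3 (adjusted p = 0.107, 0.108, 0.101 and 0.214) and 1.497 in FTR1, in the other direction, a comparison that shares the high S. cerevisiae pair.

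Each S. cerevisiae allele in a hybrid was also set against the S. cerevisiae homozygotes. In the S. paradoxus hybrid, ARN1 had 140 and 84.1 units against 1944 and 2207 in the homozygote pair of that table (log2 ratio -4.24 ± 0.34, limma adjusted p = 0.0233), and it was the only 1 of the 5 genes called, beside 7.53% of all genes. The call was lost against the S. mikatae-tabled pair (-1.51, adjusted p = 0.152), against the S. bayanus-tabled pair (-0.80, adjusted p = 0.398) and with any 1 library left out (adjusted p = 0.0891 to 0.183). With scaling by the total score, SIT1 passed as well (log2 ratio -2.68, adjusted p = 0.0495, against -2.45 and 0.0518 with the upper quartile).

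In the S. mikatae and S. bayanus hybrids, limma called 0 of the 5 S. cerevisiae alleles against their homozygotes, beside 0.576% and 0.133% of all genes. An unadjusted p under 0.05 was reached by 2 and 1 of them, beside 16.1% and 18.2% of all genes. FTR1 lay above the homozygote in all 3 hybrids, with log2 ratios of 0.74, 0.79 and 0.81 in the S. paradoxus, S. mikatae and S. bayanus hybrids (adjusted p = 0.169, 0.284 and 0.217). The alleles of S. paradoxus and S. mikatae gave 0 calls against their own homozygotes in limma, beside 0.133% and 0% of all genes. There, 0 and 2 of the 5 had an unadjusted p under 0.05, beside 7.43% and 8.19% of all genes. The S. mikatae FTR1 allele was at 2579 and 2554, where the S. mikatae homozygotes had 10645 and 8996 (log2 ratio -1.93 ± 0.27, adjusted p = 0.207).

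Ratios to S. cerevisiae were finally compared between species, a test added after the values had been seen. In homozygotes, FTR1 differed between S. paradoxus and S. mikatae by -4.99 on the log2 scale (limma adjusted p = 0.0104) and was the only call of the 5, beside 9.57% of all genes. CCC2 was the only call between S. paradoxus and S. bayanus (-3.20, adjusted p = 0.00438), beside 26.9%. Between S. mikatae and S. bayanus, FTR1 (3.78, adjusted p = 0.00418) and ARN1 (-2.22, adjusted p = 0.0379) were called, beside 19.9%.

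The ratios of these tests had different S. cerevisiae pairs beneath them. The homozygotes of the species were therefore also set against each other directly, likewise after the values had been seen, in which no S. cerevisiae library enters. The libraries so compared were counted against different pairs of genomes, as are S. cerevisiae references taken from another table. The effect of this on single genes was not tested. FTR1 of S. paradoxus remained below that of S. mikatae (log2 ratio -4.20 ± 0.49, limma adjusted p = 0.0286) and was the only call of the 5, beside 8.83% of all genes. Between S. paradoxus and S. bayanus 0 of the 5 genes were called, beside 27.8% of all genes, and CCC2, at 110.2 and 237 on average, differed by -1.10 ± 0.31 (adjusted p = 0.0615). CCC2 thus passed with the S. cerevisiae pairs in the ratio and not without them. Between S. mikatae and S. bayanus, FTR1 (3.78, adjusted p = 0.00911), FET3 (1.38, adjusted p = 0.0270) and CCC2 (-1.27, adjusted p = 0.0448) were called, beside 31.7%, and ARN1 was not (-1.51, adjusted p = 0.0731).

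In alleles, FTR1 was the only call between S. paradoxus and S. mikatae (-3.76, limma adjusted p = 0.0155), beside 5.93% of all genes, and between S. paradoxus and S. bayanus (-4.12, adjusted p = 0.00287), beside 15.5%. No library block entered these allele tests, so that the pairing of alleles by library was not used. Between S. mikatae and S. bayanus, limma called 0 of the 5 allele ratios, beside 19.6% of all genes. None of the 5 had an unadjusted p under 0.05, beside 35.8% of all genes. With 1 library left out, the homozygote differences of CCC2 and of FTR1 between S. mikatae and S. bayanus passed in 8 of 8 fits each. FTR1 between S. paradoxus and S. mikatae homozygotes passed in 6 of 8 (lost without either S. paradoxus-tabled S. cerevisiae library, highest adjusted p = 0.0615), and ARN1 between S. mikatae and S. bayanus homozygotes in 1 of 8 (adjusted p up to 0.105). In alleles, the FTR1 difference between S. paradoxus and S. bayanus passed in 2 of 4 (lost without either S. bayanus hybrid library, highest adjusted p = 0.0715), and that between S. paradoxus and S. mikatae in 0 of 4 (0.106 to 0.130).

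Of 35 other genes of iron and copper handling, 26 were listed. Against S. cerevisiae, 2 were higher and 3 lower in S. paradoxus homozygotes, 3 higher and 3 lower in S. mikatae, and 4 higher and 4 lower in S. bayanus, beside 19.9%, 19.6% and 34.6% of all genes. Among alleles, limma called 0 in the S. paradoxus hybrid, beside 5.03% of all genes. At an unadjusted p under 0.05 there were 8 of the 26, beside 27.8% of all genes. The S. mikatae allele was higher in 5 and lower in 4, and the S. bayanus allele higher in 6 and lower in 5, beside 15.8% and 35.4% of all genes. With the library as a block, 0 of these 9 calls in S. mikatae alleles held, where 0% of all genes passed, and 8 of the 11 in S. bayanus alleles. The calls in S. paradoxus and S. mikatae homozygotes were lost with any 1 library left out, as were those of all genes. The calls of FRE8, and that of CTR3 as an S. bayanus allele, are counted here although S. cerevisiae lay below the minimum of 10 in them, so that these genes entered the test through the other species alone. The median log2 ratio of the 26 genes was, in the same order of species, -0.70, 0.09 and 0.18 in homozygotes and -0.16, -0.17 and -0.23 in the alleles.

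CTR3, a copper carrier of the plasma membrane, was 92.2-fold higher in S. mikatae homozygotes (log2 ratio 6.53, adjusted p = 0.0150) and 61.2-fold higher as an S. mikatae allele (5.94, adjusted p = 0.0180). S. mikatae had 1187 and 1105 units of CTR3 in homozygotes, where its S. cerevisiae pair had 9.72 and 13.4. CTR3 was also higher in S. paradoxus homozygotes, at 756 and 249.7 against 27.2 and 30.9 (log2 ratio 3.86, adjusted p = 0.0293). As an S. bayanus allele CTR3 had 50.3 and 68.3 units and the S. cerevisiae allele beside it 9.72 and 7.69. In laboratory S. cerevisiae of the S288C family, from which BY4716 descends, CTR3 is known to carry a transposon in its promoter.

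Ferric reductases also differed. FRE8, a member of that family, was at 2.12 to 6.36 units in S. cerevisiae homozygotes, at 209 and 232 in S. bayanus and at 39.6 and 40.8 in S. mikatae. Its S. bayanus allele had 155 and 141 beside 9.72 and 4.62 for the S. cerevisiae allele, and its S. mikatae allele 52.8 and 56.7 beside 5.60 and 10.7. These FRE8 values are given as a description, with no test. FRE4, a siderophore reductase, was higher in homozygotes of S. paradoxus (4.09, adjusted p = 0.0261) and S. bayanus (3.96, adjusted p = 0.00995) and as an S. bayanus allele (3.28, adjusted p = 0.00750). FRE6 was lower in homozygotes of S. paradoxus (-3.14, adjusted p = 0.0244) and S. mikatae (-2.09, adjusted p = 0.0242) and as an S. mikatae allele (-1.84, adjusted p = 0.0307). FRE3 was higher as an S. mikatae allele (4.18, adjusted p = 0.0279) and lower as an S. bayanus allele (-2.09, adjusted p = 0.0480, and 0.0587 with the library as a block).

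Of the other metal carriers, FET4, a low-affinity iron carrier, was lower in homozygotes of S. paradoxus (-4.38, adjusted p = 0.0233) and S. bayanus (-2.81, adjusted p = 0.0102) and as an S. bayanus allele (-2.52, adjusted p = 0.0138). SMF1, a manganese carrier, was lower in S. bayanus homozygotes (-5.50, adjusted p = 0.00844) and as an S. mikatae allele (-3.19, adjusted p = 0.0229). The S. cerevisiae pair of the S. bayanus table had 1779 and 1470 units of SMF1, where the other S. cerevisiae homozygotes had 323 to 792. The S. bayanus homozygotes, at 32.3 and 37.4, lay below all of these. CTH1, an RNA-binding relative of TIS11, was lower in homozygotes of S. paradoxus (-1.81, adjusted p = 0.0409), S. mikatae (-2.06, adjusted p = 0.0223) and S. bayanus (-1.46, adjusted p = 0.0177) and as an S. bayanus allele (-2.59, adjusted p = 0.00776).

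Of the regulators, FRA2, which with Fra1 and the glutaredoxins Grx3 and Grx4 restrains Aft1, was higher in S. bayanus as a homozygote (2.43, adjusted p = 0.0108) and as an allele (1.28, adjusted p = 0.0131), and GRX3 was lower there in both (-1.94 and -1.21, adjusted p = 0.0121 and 0.0203, the allele at 0.0531 with the library as a block). YAP5 was higher in S. mikatae as a homozygote (3.11, adjusted p = 0.0275) and as an allele (3.35, adjusted p = 0.0246). The remaining calls were each in 1 comparison: GRX4, FET5 and MAC1 in S. mikatae alleles, FRA1, FTH1 and HMX1 in S. bayanus alleles, SMF3 in S. mikatae homozygotes and ISU1 in S. bayanus homozygotes. AFT1 and AFT2 were called in none of these comparisons.

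**Figure D5:**
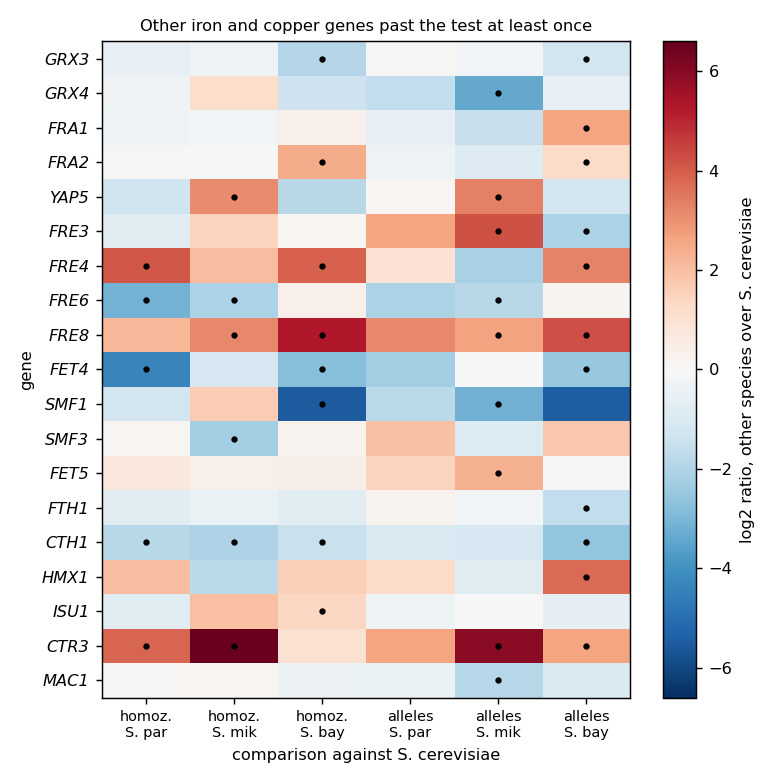
Log2 ratio over S. cerevisiae of the 19 other iron and copper genes that passed the test in at least 1 comparison of homozygotes (left 3 columns) or alleles (right 3 columns), with colour for the ratio and a dot for an adjusted p under 0.05, which for FRE8, and for CTR3 in S. bayanus alleles, rests on S. cerevisiae values below the minimum. The ratios run from -5.50 for SMF1 in S. bayanus homozygotes to 6.53 for CTR3 in S. mikatae homozygotes.

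Across the 24 values, the mean standardised profile of the 5 genes had a Pearson r of 0.83 with FET3, 0.71 with SIT1, 0.42 with ARN1, 0.30 with FTR1 and 0.22 with CCC2, where each gene is itself part of the mean. Between single genes, r ran from -0.37 (ARN1 and FTR1) to 0.48 (SIT1 and FET3) and was negative in 5 of 10 pairs. Outside the iron and copper lists, the genes with the most similar profile were MGT1 (r = 0.74), YGL194C-A (0.67), RCF3 (0.67), YGR067C (0.67) and PKP2 (0.66). The 24 values are not independent, since alleles of a hybrid share a library and the 2 libraries of a group share a strain, and the r is a description.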

How the data were processed

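Transcript ends of 18 libraries were deposited as 1 table per library, with 1 column per allele for hybrids. Per the paper's methods and the labels, reads were called with CASAVA 1.7 and mapped by the authors with Bowtie 0.12.7 to both genomes of a pair, keeping unique hits, and were weighted for GC content. The deposited values are scores: weighted reads summed from 50 bases upstream to 500 bases downstream of each gene and rounded by the authors, with no scaling between libraries. Reads identical in both genomes were lost to both, and the effect on single genes was not tested. As weighted reads are not counts, limma was used and counting intervals were not computed.

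Each column was divided by its upper quartile over all 4730 genes and multiplied to 542.771, the mean upper quartile. Log2 of the scaled score plus 1 was fitted in limma 3.58.1 (R 4.3.3) with an intensity trend, separately for each comparison, on genes with a mean of at least 10. Benjamini-Hochberg adjusted p under 0.05 over all genes tested was called. Confidence intervals are 95%. Fold changes are on the log2(score + 1) scale. Per the paper's methods, the 2 libraries of a group were biological replicates. Which S. cerevisiae libraries belong to which pair was read from the genome they were counted against. Alleles of a hybrid are paired by their library. The difference between libraries in one allele correlated with that in the other at 0.0628, 0.0091 and 0.0274 over genes in the S. paradoxus, S. mikatae and S. bayanus hybrids. Alternatives covered the scaling, pseudocounts of 0.5 and 5, minimum scores of 0 and 50, the reference libraries, a block and leaving out libraries. The fits were tested on simulated data.

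The genes and gene lists were chosen with earlier results of these data known. The text names every listed member, the other iron and copper genes called in at least 1 comparison of homozygotes or alleles, and the 5 genes with the most similar profiles. AFT1, AFT2 and TIS11 are named outside that rule, after their values were seen. Gene symbols and sequences are from RefSeq R64. Figures were drawn with Matplotlib 3.10.9.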

Additional observations from a re-analysis of the deposited data

Results flagged for a closer look

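The ratio to S. cerevisiae differed between species for FTR1, CCC2 and ARN1 in 6 tests of the difference itself, all added after the values had been seen. Each of the 5 genes was tested between every pair of these species, in homozygotes and in alleles, and only the tests that passed are given here. Several of them were lost with 1 library left out, as described above. FTR1, the iron permease, had a homozygote log2 ratio in S. paradoxus that was -4.99 relative to that in S. mikatae (limma adjusted p = 0.0104), and the ratio in S. mikatae was 3.78 above that in S. bayanus (adjusted p = 0.00418). In alleles, the FTR1 ratio of S. paradoxus was -3.76 relative to S. mikatae (adjusted p = 0.0155) and -4.12 relative to S. bayanus (adjusted p = 0.00287). These allele tests had no library block. CCC2, the copper ATPase, had a homozygote ratio in S. paradoxus that was -3.20 relative to S. bayanus (adjusted p = 0.00438). ARN1, the ferrichrome carrier, had a homozygote ratio in S. mikatae that was -2.22 relative to S. bayanus (adjusted p = 0.0379). The differences that involve S. paradoxus homozygotes rest on the S. cerevisiae pair with high CCC2, ARN1 and SIT1. With the homozygotes set against each other directly, without S. cerevisiae, the FTR1 differences were -4.20 and 3.78 and passed (adjusted p = 0.0286 and 0.00911), while CCC2 between S. paradoxus and S. bayanus was at -1.10 (adjusted p = 0.0615) and ARN1 between S. mikatae and S. bayanus at -1.51 (adjusted p = 0.0731), and neither passed.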

How the results depend on the processing

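No call of the 5 genes against S. cerevisiae or against a homozygote changed direction under the alternatives run. Of 162 values of called genes under these alternatives, 102 stayed on their side of the threshold and 60 no longer passed. Of 703 values of genes not called, the comparison among S. cerevisiae pairs left aside, 44 changed sign and 4 passed. With a replicate block, the number of the 5 genes called fell to 1 in S. paradoxus homozygotes, 0 in S. mikatae homozygotes and 1 in S. bayanus homozygotes (from 2 in each), and with the library as a block it was 0 in the S. paradoxus and S. mikatae alleles (from 1 in each) and 2 in the S. bayanus alleles (from 3). Of all genes, these fits called 7.35%, 0% and 17.1% in S. paradoxus, S. mikatae and S. bayanus homozygotes and 0%, 0% and 23.6% in alleles, so that a lost call is no mark of the 5 genes. The replicate numbers of homozygotes mark no shared source, and blocked fits have fewer residual degrees of freedom. With 1 library left out, a group was left with a single library. The 162 and 703 values above include such fits, so that the 60 lost values are not a count over the other alternatives alone. Most calls of the 5 genes were lost in them, and the calls of all genes fell as well in homozygotes. In S. mikatae alleles the log2 ratio of CCC2 was 2.13 without the first library, where the main fit gave 1.41. With other reference libraries for S. paradoxus homozygotes, 0 were called against all 6 S. cerevisiae libraries, beside 24.8% of all genes. Against the S. mikatae-tabled pair 0 were called, beside 8.71%, and against the S. bayanus-tabled pair 1, CCC2, beside 9.65%. The S. cerevisiae allele of the S. paradoxus hybrid gave 0 against each of these pairs, beside 0.798% and 0.819%. With scaling by the total, 2 were called for that allele against its own pair, beside 8.63% of all genes. The same scaling gave 2 between the S. cerevisiae pairs, beside 3.75%. For those pairs, the S. paradoxus-tabled libraries against the other 4 gave 3, beside 9.4%. The S. mikatae-tabled against the S. bayanus-tabled gave 0, beside 0%. Scaling by the total also moved the median log2 ratio of all genes to -0.46 in S. paradoxus and -0.47 in S. mikatae homozygotes. The groups of 2 libraries limit every test, and low scores such as the 13.3 units of the S. bayanus ARN1 allele carry counting error that could not be measured.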
